A study of Arabidopsis thaliana and Brassica rapa with 28 samples.

Results

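The comparison described here set Arabidopsis seedlings that express the auxin repressor axr3-1 from an epidermal promoter against their control, both after shade. The experimental seedlings were CER6pro>>axr3-1::mCit plants, in which the CER6 promoter drives the axr3-1 protein, fused to the yellow fluorescent protein mCit, through a driver line and a UAS responder. They are named axr3-1 seedlings in what follows. The control seedlings were hemizygous UAS::axr3-1::mCit plants, which carry the responder without the driver. Seedlings of both genotypes were 5 d old, had been raised in continuous white light (W) on agar, and then spent 4 h in shade, which here means light of low R:FR (the red to far-red ratio). Polyadenylated RNA came from whole seedlings, with 4 libraries per genotype, so that 8 of the 28 samples of the series entered this comparison. They were chosen by their labelled genotype and light alone. Another 8 libraries, 4 of each genotype after 4 h of W, served to ask whether a difference seen in shade differed in size from that in W. The CER6 promoter is active in the epidermis and the RNA is from all tissues, so a transcript that differed may lie in any of them. In such RNA, fewer cells of a type and less RNA per cell cannot be told apart.

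Auxin acts by letting its TIR1/AFB receptors bind Aux/IAA proteins, which are then degraded, and this frees ARF transcription factors to act on auxin-responsive genes. The axr3-1 mutation stabilises the Aux/IAA protein AXR3 (IAA17), so that it goes on repressing those genes in the presence of auxin. Low red to far-red light inactivates phytochrome B, which lets PIF transcription factors raise auxin synthesis, largely in leaves and cotyledons, and stems elongate. The Aux/IAA, GH3 and SAUR genes are the standard early transcripts of auxin response.

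Of 33543 genes in the authors' deposited table, 20321 were marked as tested between the genotypes in shade, and 255 of them (1.25%) had a q under 0.05 from Cuffdiff. Genes past that threshold are named as called higher or called lower. 161 genes (0.792% of those tested) were called higher in axr3-1 seedlings and 94 (0.463%) lower. These shares are the background for each count of called members in the gene lists and families below. Among the largest rises were genes of iron uptake (BHLH38, CYP82C4, BHLH39 and FRO2), genes of auxin synthesis (YUC5 and YUC9) and the vegetative storage protein genes VSP2 and VSP1. Among the largest falls were the cold-regulated genes COR15A, GOLS3, COR15B and COR78, and PECP1 and PS2, phosphatases of phosphate starvation. Genes called higher had a median log2 fold of 1.26, and genes called lower of -1.10, while the median over all tested genes was 0.01. The called log2 folds ran between -3.75 and 5.86, and 177 called genes had changed by at least 2-fold, 123 higher and 54 lower.

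Each value of expression given here is the authors' FPKM of a group (fragments per kilobase of transcript, scaled to the mapped reads), 1 value for the 4 libraries, so values of single libraries and their SD are not shown and the read depth is unknown. A log2 fold is the log2 of the FPKM in axr3-1 over that in control seedlings, with a standard error (SE) recovered from the deposited test statistic. For some genes, BHLH38, SAUR15 and IPS1 among them, this SE is narrower than the deposited p implies. Nothing in the labels says whether the libraries came from separate cultures, so a p-value measures only the spread between these libraries, which may be technical. An FPKM of 1 or more was listed for 19982 genes in axr3-1 and 20010 genes in control seedlings, and the 10 most abundant genes held 11.01% of the summed FPKM in axr3-1 and 12.04% in control seedlings. Fitted p-values reached their smallest value, 5e-05, for 130 genes, which share q = 0.00309 in the authors' deposited table and are not ranked among themselves by it. An unadjusted p under 0.05 was found for 1006 genes.

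**Figure D1:**
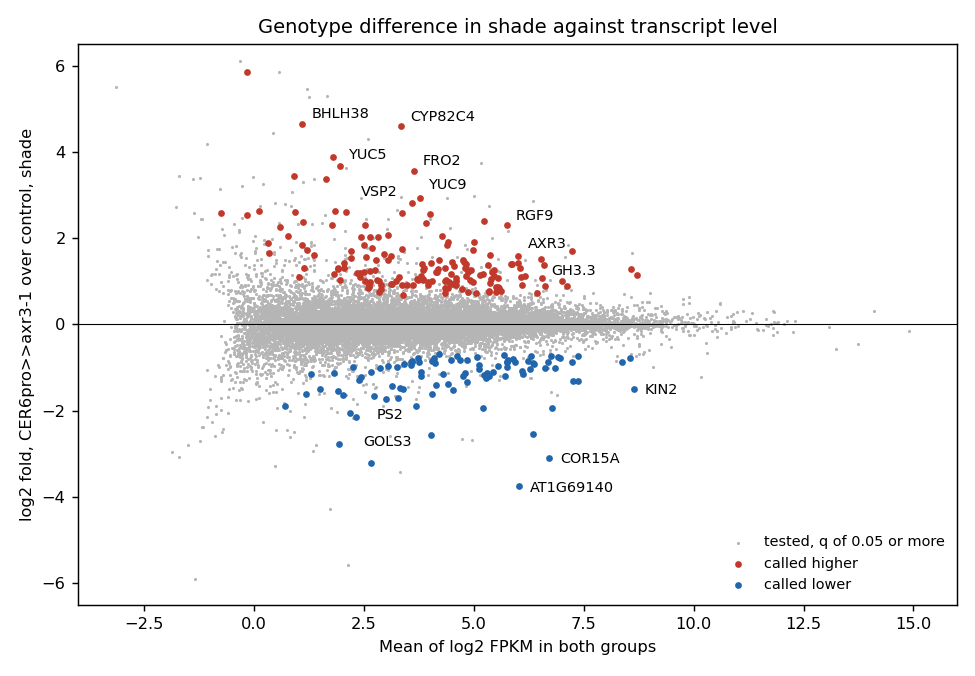
The log2 fold of axr3-1 over control seedlings in shade (vertical axis) is plotted against the mean of the log2 FPKM of both groups (horizontal axis) for each tested gene, with called genes coloured red where higher and blue where lower. Called genes lie across the range of levels, GH3.3 and AXR3 among the abundant ones called higher and COR15A and KIN2 among those called lower, and 4 tested genes fall outside the axes.

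AXR3, the gene whose mutant coding sequence the transgene carries, was higher in the experimental seedlings. AXR3 (AT1G04250), at chr1:1136258-1138613 of TAIR10, had an FPKM of 112 in axr3-1 seedlings and 37.1 in control seedlings, a log2 fold of 1.59 ± 0.21. Reads of the transgene and of the endogenous gene cannot be told apart in this value. CER6, a wax synthesis gene and the source of the promoter, had 200.3 FPKM in axr3-1 and 197 FPKM in control seedlings and was not called (q = 1 in the authors' deposited table). Transcripts that mark low red to far-red light were high in both genotypes. PIL1, an early shade-induced factor, had 44.6 FPKM in axr3-1 and 37.3 FPKM in control seedlings in shade, and 0.895 FPKM in axr3-1 and 0.894 FPKM in control seedlings in W. HFR1, which restrains PIFs, had 82.2 FPKM in axr3-1 and 80.5 FPKM in control seedlings in shade. ATHB2, a homeodomain factor of shade avoidance, had 101 FPKM in axr3-1 and 87.4 FPKM in control seedlings, and none of the 3 was called. Of 21 tested shade markers HAT2 and FLP1 were called higher and none lower, with a median log2 fold of 0.07.

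Epidermal marker genes were detected in both genotypes and not called in shade. None of 15 tested epidermal genes was called in shade, 1 had an unadjusted p under 0.05, and their median log2 fold was -0.22, with 11 below 0. ATML1, a homeodomain factor of epidermal identity, had 28.3 FPKM in axr3-1 and 32.9 FPKM in control seedlings, and PDF1, an epidermis-specific protein, had 285 FPKM in axr3-1 and 394 FPKM in control seedlings. The summed FPKM of the set in shade was 1633 in axr3-1 and 1893 in control seedlings. In W 1 of 15 tested epidermal genes was called lower and none higher, and their median log2 fold was -0.31. CER6, a member of this set, had 180 FPKM in axr3-1 and 263 FPKM in control seedlings in W and was not called there. Among genes of trichomes and root hairs, which are epidermal outgrowths, 21 of 25 lay below 0 with a median of -0.43, 6 had an unadjusted p under 0.05, and 1 was called. That gene was XTH12, a root hair enzyme of wall loosening, at 6.75 FPKM in axr3-1 and 13.4 FPKM in control seedlings. In W the list's median was 0.00 over 26 tested genes. What part these levels have in the other results was not tested. Marker lists for other cell types had no call in shade: the medians were 0.28 for 9 mesophyll genes, 0.11 for 22 root genes, 0.00 for 29 vascular genes, -0.12 for 24 genes of stomata and -0.02 for 21 of meristem and leaf primordia. Of the root genes 18 lay above 0 and 4 below, and of the mesophyll genes 7 above and 2 below.

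Early auxin-response genes were called higher in axr3-1 seedlings more often than lower. Among the 23 tested, 5 were called higher and 1 was called lower, with 14 above 0 and a median of 0.22. GH3.3 (AT2G23170), which conjugates auxin to amino acids, had 156 FPKM in axr3-1 and 54.1 FPKM in control seedlings, a log2 fold of 1.53 ± 0.24. Its paralogue GH3.2 had 28.4 FPKM in axr3-1 and 11.6 FPKM in control seedlings, a log2 fold of 1.28 ± 0.24. IAA19, an Aux/IAA gene of hypocotyl growth, had 64.2 FPKM in axr3-1 and 29.7 FPKM in control seedlings, a log2 fold of 1.11 ± 0.22. HAT2, an auxin-inducible homeodomain factor, and ACS4, an auxin-inducible gene of ethylene synthesis, rose, with log2 folds of 0.88 ± 0.20 and 1.19 ± 0.33. The gene called lower was IAA3 (SHY2), the next gene to AXR3 on chromosome 1, at 25.9 FPKM in axr3-1 and 43.3 FPKM in control seedlings (log2 fold -0.74 ± 0.19). Several others were not called: IAA29, a strongly shade-induced Aux/IAA gene, had 45.3 FPKM in axr3-1 and 57.9 FPKM in control seedlings, IAA5 had 5.23 FPKM in axr3-1 and 1.86 FPKM in control seedlings, and IAA6 had 0.720 FPKM in axr3-1 and 3.93 FPKM in control seedlings.

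SAUR genes, which encode small proteins that promote acid growth, were mostly above 0 and seldom called. 2 of 26 were called higher and none lower, 22 lay above 0, and the median was 0.36. SAUR9 had 12.4 FPKM in axr3-1 and 3.07 FPKM in control seedlings (log2 fold 2.02 ± 0.29), and SAUR15 had 13.8 FPKM in axr3-1 and 4.91 FPKM in control seedlings (1.49 ± 0.29). SAUR19, a member that promotes hypocotyl growth, had 18.5 FPKM in axr3-1 and 13.3 FPKM in control seedlings and was not called. In W the same list held 5 genes called higher and had a median of 0.99. Of 13 auxin receptors and ARFs, the auxin response factors, none was called, and their log2 folds lay between -0.33 and 0.19.

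4 genes for making auxin rose, and no gene for moving it passed the test. They were the only calls, with none lower, within 26 tested genes of auxin synthesis, transport and inactivation, and the list's median was 0.04. All 4 serve the tryptophan to indole-3-acetic acid route. TAA1, the aminotransferase of its first step, had 23.4 FPKM in axr3-1 and 11.7 FPKM in control seedlings (log2 fold 1.00 ± 0.25). The other 3 are flavin monooxygenases of its second step. YUC5 (AT5G43890, chr5:17648857-17650286) had 13.9 FPKM in axr3-1 and 1.09 FPKM in control seedlings (3.67 ± 0.40). YUC9 had 37.9 FPKM in axr3-1 and 4.97 FPKM in control seedlings (2.93 ± 0.29), and YUC2 had 15.1 FPKM in axr3-1 and 5.01 FPKM in control seedlings (1.59 ± 0.28). YUC8, a shade-induced member of the same family, was not called, at 28.6 FPKM in axr3-1 and 23.8 FPKM in control seedlings. The transporter genes PIN3, PIN7, AUX1 and ABCB19 had log2 folds of 0.01, -0.13, 0.04 and 0.04.

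Other hormone pathways showed single genes. Ethylene genes gave 2 calls of 18, both higher and both ACC synthases: ACS4, named above, and ACS5 at 3.46 FPKM in axr3-1 and 0.832 FPKM in control seedlings. Brassinosteroid response genes, which overlap those of auxin, gave 1 call in each direction among 23. PRE6 (KIDARI), a small helix-loop-helix protein that promotes elongation, had 182 FPKM in axr3-1 and 90.3 FPKM in control seedlings (log2 fold 1.01 ± 0.14). TCH4 (XTH22), a wall enzyme also induced by touch, had 39.9 FPKM in axr3-1 and 72.9 FPKM in control seedlings (-0.87 ± 0.20). DWF4, which encodes the rate-limiting hydroxylase of brassinosteroid synthesis, had 16.04 FPKM in axr3-1 and 10.2 FPKM in control seedlings and was not called, and none of 15 genes of that pathway was. The only gibberellin gene called of 23 was the catabolic GA2OX6, lower at 13.1 FPKM in axr3-1 and 22.4 FPKM in control seedlings. PKS4, a phytochrome substrate of phototropism and the only call among 28 light signalling genes, had 22.1 FPKM in axr3-1 and 9.24 FPKM in control seedlings, at a locus the table shares with another gene. None of 19 cytokinin response genes was called.

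Genes of iron deficiency formed the list with the most calls. 10 of 26 tested members were called higher and none lower, 22 lay above 0, 15 had an unadjusted p under 0.05, and the median log2 fold was 0.79. Arabidopsis takes up iron by acidifying the soil, reducing ferric iron and importing ferrous iron, under the root factor FIT and its partners of the subgroup Ib bHLH proteins. FIT itself had 22.9 FPKM in axr3-1 and 9.20 FPKM in control seedlings, a log2 fold of 1.32 ± 0.25. Its partner genes were all above 6 FPKM in axr3-1 seedlings and under 1 FPKM in control seedlings. BHLH38 (AT3G56970) had 10.7 FPKM in axr3-1 and 0.426 FPKM in control seedlings, a log2 fold of 4.65 ± 0.54. For BHLH38 the deposited Cuffdiff p of 0.00045 implies a wider SE than that. BHLH39, the neighbour of BHLH38, had 13.4 FPKM in axr3-1 and 0.908 FPKM in control seedlings. BHLH101 had 6.16 FPKM in axr3-1 and 0.571 FPKM in control seedlings. Among their targets, the ferric reductase gene FRO2 had 42.6 FPKM in axr3-1 and 3.598 FPKM in control seedlings (3.57 ± 0.34). CYP82C4, which makes the catechol coumarin sideretin, had 49.7 FPKM in axr3-1 and 2.06 FPKM in control seedlings (4.59 ± 0.38).

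The remaining iron genes moved less or missed the threshold. The nicotianamine synthase genes NAS1 and NAS2, whose product chelates iron inside the plant, had log2 folds of 1.41 ± 0.22 and 1.39 ± 0.20. The copper transporter COPT2 and the mitochondrial reductase FRO3 had 1.13 ± 0.21 and 0.97 ± 0.29. IRT1, the main iron importer of the root, had 129.9 FPKM in axr3-1 and 9.78 FPKM in control seedlings, yet the authors' deposited table gives it q = 0.908. BHLH100 likewise had 19.7 FPKM in axr3-1 and 0.503 FPKM in control seedlings at q = 0.383 in the authors' deposited table. PYE and BTS, regulators of the response in the vasculature, had q = 0.0759 and 0.0645 in the authors' deposited table with log2 folds of 0.79 and 0.74. The iron stores FER1, FER3 and FER4, whose transcripts fall in iron-poor plants, lay at -0.22, -0.22 and -0.23 and were not called.

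Cold-regulated genes were the list that fell most. 8 of 16 tested members were called lower and none higher, 15 lay below 0, 13 had an unadjusted p under 0.05, and the median was -0.85. Their summed FPKM was 1177 in axr3-1 and 2377 in control seedlings. Most of them are targets of the CBF factors, which bind the CRT/DRE element, and their products protect membranes and proteins against freezing and drought. COR15A (AT2G42540), a chloroplast protein that shields membranes, had 35.9 FPKM in axr3-1 and 306 FPKM in control seedlings (log2 fold -3.09 ± 0.33). Its neighbour COR15B had 33.3 FPKM in axr3-1 and 195 FPKM in control seedlings (-2.55 ± 0.21), and GOLS3, which makes the protective sugar galactinol, had 6.71 FPKM in axr3-1 and 40.0 FPKM in control seedlings (-2.57 ± 0.27). COR78 (RD29A) had 55.6 FPKM in axr3-1 and 213 FPKM in control seedlings, and KIN1 had 17.99 FPKM in axr3-1 and 45.4 FPKM in control seedlings. CBF3, itself a CBF factor, was called lower at 2.19 FPKM in axr3-1 and 6.38 FPKM in control seedlings, while CBF1 (1.35 FPKM in axr3-1 and 2.76 FPKM in control seedlings) and CBF2 (2.57 FPKM in axr3-1 and 4.57 FPKM in control seedlings) were not called. BAM3 (AT4G17090), a plastid beta-amylase at a locus shared with another gene, and the membrane protein gene COR413-PM1 were the other calls, at log2 folds of -0.87 ± 0.27 and -0.77 ± 0.26.

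Further called genes carry the same kind of annotation outside that list. KIN2, the neighbour of KIN1 and a member of the list of abscisic acid response, had 237 FPKM in axr3-1 and 667 FPKM in control seedlings (-1.49 ± 0.17) and was the only call of 13 in its list. COR413IM1, a protein of the inner chloroplast envelope, had 244 FPKM in axr3-1 and 445 FPKM in control seedlings (-0.87 ± 0.22). LEA14, a late embryogenesis protein, fell by less, at 94.9 FPKM in axr3-1 and 163 FPKM in control seedlings. RD20, a caleosin induced by dehydration, went the other way with 25.2 FPKM in axr3-1 and 4.23 FPKM in control seedlings (2.57 ± 0.38), so desiccation-linked genes did not all fall.

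**Figure D2:**
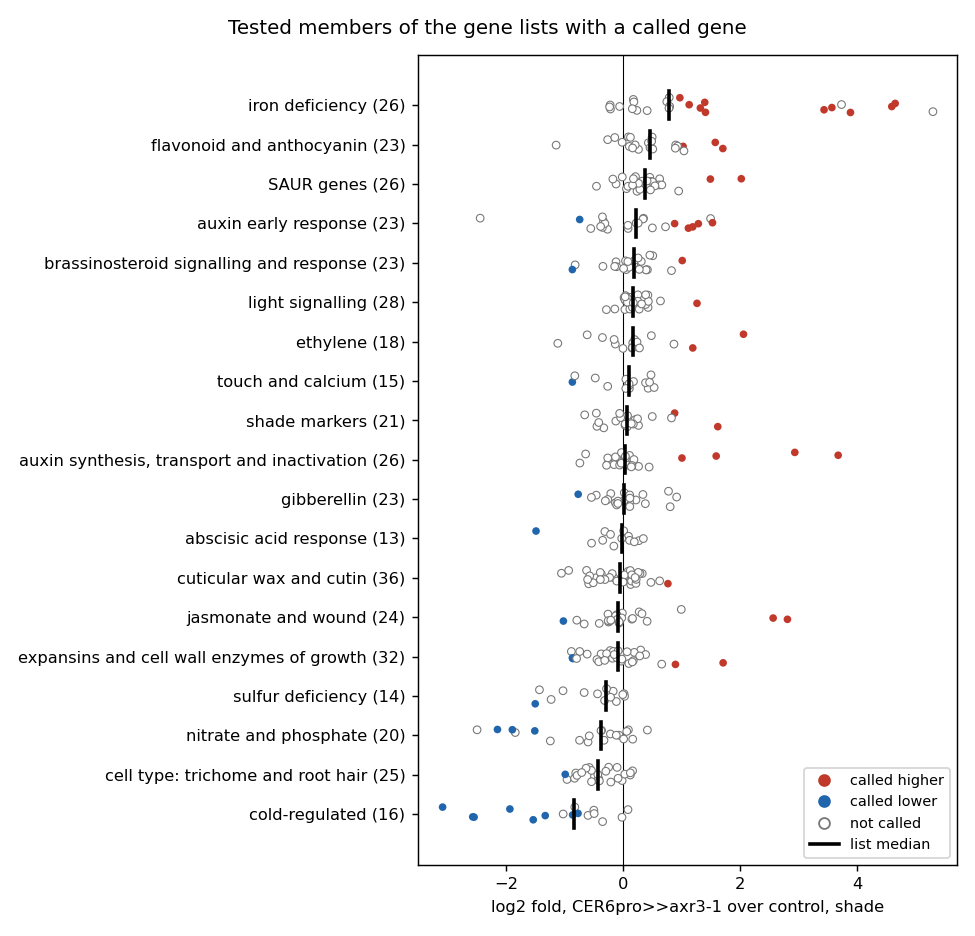
For each gene list with a called gene, every tested member is drawn at its log2 fold of axr3-1 over control seedlings in shade, filled where called, with the number tested in brackets and a bar at the list median. Iron deficiency genes have the highest median (0.79) and cold-regulated genes the lowest (-0.85), and the calls of auxin synthesis lie apart from the other members of their list.

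The proximal promoters of 4 of these genes are given as the 250 bases before the start of the gene, from RefSeq on TAIR10.1, to show where short elements of auxin, cold and light response fall. They were picked as a strongly changed gene of each main group: GH3.3 for auxin response, YUC5 for auxin synthesis, COR15A for cold and BHLH38 for iron. All are on the minus strand and read 5′ to 3′ toward the gene. GH3.3 is upstream sequence at chr2:9866563-9866812, YUC5 at chr5:17650376-17650625, COR15A at chr2:17712331-17712580 and BHLH38 at chr3:21085246-21085495. Capitals mark TGTCTC (auxin response element), TGTCGG (a tighter-binding form of it), CACGTG (G-box), CACGTT (a G-box variant), CGTGTG (brassinosteroid response element) and CCGAC (core of the CRT/DRE), each searched on both strands.
GH3.3: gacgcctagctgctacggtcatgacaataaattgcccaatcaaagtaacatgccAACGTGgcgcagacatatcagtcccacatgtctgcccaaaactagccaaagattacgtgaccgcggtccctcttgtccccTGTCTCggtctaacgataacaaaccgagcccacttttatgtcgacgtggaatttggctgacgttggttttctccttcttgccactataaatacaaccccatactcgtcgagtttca
YUC5: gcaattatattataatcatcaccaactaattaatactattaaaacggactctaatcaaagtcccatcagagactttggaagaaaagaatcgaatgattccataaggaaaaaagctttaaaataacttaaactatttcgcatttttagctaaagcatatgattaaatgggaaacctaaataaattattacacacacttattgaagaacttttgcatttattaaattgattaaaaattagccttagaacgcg
COR15A: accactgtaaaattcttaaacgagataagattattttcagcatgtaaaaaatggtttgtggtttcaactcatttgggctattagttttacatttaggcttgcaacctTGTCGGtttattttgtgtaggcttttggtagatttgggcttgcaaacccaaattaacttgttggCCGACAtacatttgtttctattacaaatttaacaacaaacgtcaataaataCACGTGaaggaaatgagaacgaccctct
BHLH38: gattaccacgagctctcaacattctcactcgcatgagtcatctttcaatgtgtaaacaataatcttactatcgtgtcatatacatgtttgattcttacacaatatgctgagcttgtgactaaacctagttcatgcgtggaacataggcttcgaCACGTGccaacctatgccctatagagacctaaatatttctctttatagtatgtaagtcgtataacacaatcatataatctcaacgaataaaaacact
GH3.3 holds TGTCTC 116 bases before its start, and CACGTT on the opposite strand at 196. COR15A holds CCGAC on either strand, at 142 and 79 bases, within TGTCGG and its reverse complement, and a G-box at 28. BHLH38 holds a G-box at 97, and the YUC5 window holds none of these letters.

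Across promoters from 250 bases before to 50 after the start, TGTCTC stood in 15.3% of 157 promoters of genes called higher, 15.2% of 92 of genes called lower and 13.6% of 19044 of all tested genes. The letters CCGAC, added to the search after the calls were seen, stood in 7.01% of promoters of genes called higher, 28.3% of genes called lower and 16.1% of those tested. TGTCGG, whose reverse complement contains CCGAC, stood in 4.46% of the promoters of genes called higher, 14.1% of genes called lower and 5.63% of those tested. In the same order of sets the G-box stood in 7.01%, 15.2% and 8.89%, CACGTT in 8.92%, 14.1% and 9.04%, and CGTGTG in 8.28%, 7.61% and 6.78%. A match describes these letters and not binding of a factor.

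Several phosphate starvation genes fell in axr3-1 seedlings. Of 20 tested nitrate and phosphate genes 3 were called lower and none higher, all 3 of the phosphate response, and the median was -0.38. PECP1, a phosphatase of phosphoethanolamine and phosphocholine, had 2.35 FPKM in axr3-1 and 10.5 FPKM in control seedlings (log2 fold -2.15 ± 0.48). PS2 (AT1G73010), a pyrophosphatase, had 6.65 FPKM in axr3-1 and 24.8 FPKM in control seedlings (-1.90 ± 0.29). IPS1, a non-coding RNA that sequesters miR399, had 13.6 FPKM in axr3-1 and 38.9 FPKM in control seedlings (-1.51 ± 0.25). In W 4 of 20 tested genes of the list were called lower and none higher, PECP1, PS2 and IPS1 among them. The list's median in W was -0.31. MGD2, which makes galactolipid in place of phospholipid, was outside the list and called lower at 3.71 FPKM in axr3-1 and 11.8 FPKM in control seedlings. Of the nitrate genes NIA1, NIA2 and NRT1.1 none was called, at log2 folds of 0.16, 0.41 and 0.09. 1 of 14 sulfur deficiency genes was called, SDI1, which restrains glucosinolate synthesis, at 1.69 FPKM in axr3-1 and 4.79 FPKM in control seedlings, and 12 of the 14 lay below 0 with a median of -0.30.

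DFR, TT19 and TT7 of the flavonoid list and the vegetative storage protein genes VSP1 and VSP2 rose. 3 of 23 flavonoid genes were called higher and none lower, 19 lay above 0 and the median was 0.46. DFR, the reductase that commits flavonoids to anthocyanin, had 8.36 FPKM in axr3-1 and 2.57 FPKM in control seedlings (1.70 ± 0.32). TT19, the glutathione transferase that carries anthocyanin to the vacuole, had 9.99 FPKM in axr3-1 and 3.36 FPKM in control seedlings, and the hydroxylase TT7 had 5.52 FPKM in axr3-1 and 2.72 FPKM in control seedlings. CHS, the first enzyme of the route, had 143 FPKM in axr3-1 and 101 FPKM in control seedlings and was not called. LDOX and MYB75 were picked for mention after their values were seen. LDOX, the dioxygenase after DFR, had 5.26 FPKM in axr3-1 and 2.56 FPKM in control seedlings and was not called. MYB75, a regulator of anthocyanin genes, had the lowest log2 fold of the tested list at -1.15, with 0.731 FPKM in axr3-1 and 1.62 FPKM in control seedlings, and was not called. In the jasmonate and wound list, 16 of 24 genes lay below 0 and the median was -0.09, but VSP2 had 31.7 FPKM in axr3-1 and 4.53 FPKM in control seedlings (2.81 ± 0.37) and its neighbour VSP1 had 38.9 FPKM in axr3-1 and 6.58 FPKM in control seedlings (2.56 ± 0.39). Both encode storage proteins induced by jasmonate. AOC2, an enzyme of jasmonate synthesis, was called lower at 54.0 FPKM in axr3-1 and 109.7 FPKM in control seedlings.

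Wall-loosening enzymes went both ways. Among 32 expansins and growth-related wall enzymes 2 were called in each direction, and the median was -0.10. XTH24 (MERI5), a xyloglucan endotransglucosylase/hydrolase, had 269.8 FPKM in axr3-1 and 82.6 FPKM in control seedlings (1.71 ± 0.24), and the auxin-inducible XTH19 had 133 FPKM in axr3-1 and 71.5 FPKM in control seedlings (0.89 ± 0.22). XTH9 was called lower at 76.0 FPKM in axr3-1 and 138 FPKM in control seedlings (-0.86 ± 0.23), as was TCH4, given above. Of 36 cuticular wax and cutin genes, which are expressed in the epidermis, 1 was called, KCS5, an elongase of very long fatty acids, at 53.3 FPKM in axr3-1 and 31.4 FPKM in control seedlings. 4 of the tested wax genes were called lower in W.

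FLP1 and its neighbour FLA5 were called higher in shade and not in W. FLP1, a small protein that promotes stem elongation, had 72.2 FPKM in axr3-1 and 23.6 FPKM in control seedlings in shade, against 1.42 FPKM in axr3-1 and 1.45 FPKM in control seedlings in W. The next gene, FLA5, a fasciclin-like arabinogalactan protein, had 8.84 FPKM in axr3-1 and 1.44 FPKM in control seedlings in shade and 0.563 FPKM in axr3-1 and 0.377 FPKM in control seedlings in W. The difference between the lights was not past the threshold for FLP1 (1.65 ± 0.52 on the log2 scale, adjusted p = 0.186 from the authors' statistic and 0.79 from the authors' p), by a two-sided z test on both log2 folds and their SEs with Benjamini-Hochberg adjustment. FLA5 was not marked as tested in W.

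Other genes among the largest or most abundant calls have various roles. HR4, a homologue of the RPW8 resistance genes, had 85.3 FPKM in axr3-1 and 16.3 FPKM in control seedlings, and RGF9, a peptide of the root meristem growth factor family, had 119 FPKM in axr3-1 and 24.1 FPKM in control seedlings. GSTL1, a lambda glutathione transferase, had 12.8 FPKM in axr3-1 and 2.60 FPKM in control seedlings, and ATIM, a relative of the TIMELESS clock protein, had 17.0 FPKM in axr3-1 and 4.04 FPKM in control seedlings. GLP5, a germin-like protein of plasmodesmata, was among the most abundant calls at 598 FPKM in axr3-1 and 246 FPKM in control seedlings. The locus AT1G65845 had 188 FPKM in axr3-1 and 102 FPKM in control seedlings, and a locus the table names pEARLI had 624 FPKM in axr3-1 and 283 FPKM in control seedlings. Among falls, the aldolase FBA5 had 105 FPKM in axr3-1 and 258 FPKM in control seedlings, the desaturase-like ADS4 had 4.40 FPKM in axr3-1 and 14.6 FPKM in control seedlings, and the growth-regulating factor GRF7 had 2.30 FPKM in axr3-1 and 7.15 FPKM in control seedlings. The lowest fold was at AT1G69140, a pseudogene at a shared locus, with 17.7 FPKM in axr3-1 and 239 FPKM in control seedlings.

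Lists with no call in shade include cell cycle genes, in which 20 of 23 lay below 0 with a median of -0.34 (-0.35 in W), and nuclear photosynthesis genes with a median of 0.04 over 31. None of 19 clock, 15 aliphatic glucosinolate, 16 indolic glucosinolate, 14 salicylate and 13 heat genes was called. Aliphatic glucosinolate genes had no call and a median of -0.15 in shade, against 8 calls lower and -1.005 in W. Dark and starvation genes had no call in shade, where 15 of 19 lay above 0 with a median of 0.40, against 5 calls higher and 0.67 in W. Over the 36 lists 718 distinct genes were tested, of which 33 were called higher and 19 lower, and 203 called genes belonged to no list. Of all tested genes 0.792% were called higher and 0.463% lower. The lists were chosen with earlier results of these data known, so a larger share in them is not a separate result.

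In W the same genotypes differed at 442 of 20470 tested genes (2.16%), 299 higher (1.46%) and 143 lower (0.699%), in libraries that the shade comparison does not use. 112 genes were called higher in both lights, which is 69.6% of the genes called higher in shade and 37.5% of the genes called higher in W. 35 genes were called lower in both, 37.2% of the shade list and 24.5% of the W list, and none was called in opposite directions. Of the 161 genes called higher in shade, 160 had a log2 fold above 0 in W, and of the 94 called lower 85 had one below 0. Across the 19206 genes that reached an FPKM of 1 in all 4 groups, the log2 folds of the lights had a Spearman rho of 0.53, given as a description because genes are not independent replicates.

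Whether the difference between genotypes itself differed between the lights was tested per gene, as shade minus W, over 20021 genes, and 123 of them passed (0.614%) with an adjusted p under 0.05. The z test is an approximation, since pooled values allow no exact test over libraries. Once scaled to the normal deviate of p, the deposited statistic was more than 2 times the deviate of its own p for some genes. They were 1.70% of genes in shade and 1.65% in W, among genes with p above the smallest value and below 1. Small non-coding or merged loci and BHLH38 were among them, and for these the recovered SE is too small. In another run the SE was computed from the deposited p wherever that p was above its smallest value. Genes at the smallest p kept the SE from the statistic. In that run 22 genes passed (0.11%), all of them also among the 123, and these 22 were picked for description after both results were seen. Each of the 22 had the smallest p in shade or W, and MAKR6 and AT5G50335 had it in both. Passing with both SEs is therefore not a pass in independent tests. 6 had a higher log2 fold in shade and 16 a lower one. 8 of the 22 were called in shade, 5 of these not in W, and the other 14 were called in W alone. Of the 108 genes called in shade and not in W, 5 passed with both SEs.

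The 5 genes called in shade alone whose difference passed both ways were YUC9, COR15A, KIN1, COR78 and TCH4. YUC9 had 3.1 FPKM in axr3-1 and 2.02 FPKM in control seedlings in W, so its log2 fold in shade was larger by 2.32 ± 0.48 (adjusted p = 0.000419 from the authors' statistic and 0.0018 from the authors' p). COR15A had 8.47 FPKM in axr3-1 and 13.7 FPKM in control seedlings in W, and its difference between the lights was -2.39 ± 0.52 (adjusted p = 0.0011 from the authors' statistic and 0.00143 from the authors' p). COR78 had 17.7 FPKM in axr3-1 and 21.9 FPKM in control seedlings in W, a difference between the lights of -1.63 ± 0.43 (adjusted p = 0.0248 from the authors' statistic and 0.0499 from the authors' p). KIN1 had 37.8 FPKM in axr3-1 and 35.2 FPKM in control seedlings in W and a difference of -1.44 ± 0.28 (adjusted p = 5.01e-05 from the authors' statistic and 0.0289 from the authors' p). TCH4 had 35.3 FPKM in axr3-1 and 25.6 FPKM in control seedlings in W, with no call there, and the difference between the lights was -1.33 ± 0.29 (adjusted p = 0.00105 from the authors' statistic and 0.0191 from the authors' p). COR15B, by contrast, was called lower in both lights and its difference was -0.31 ± 0.39 (adjusted p = 1 from the authors' statistic).

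**Figure D3:**
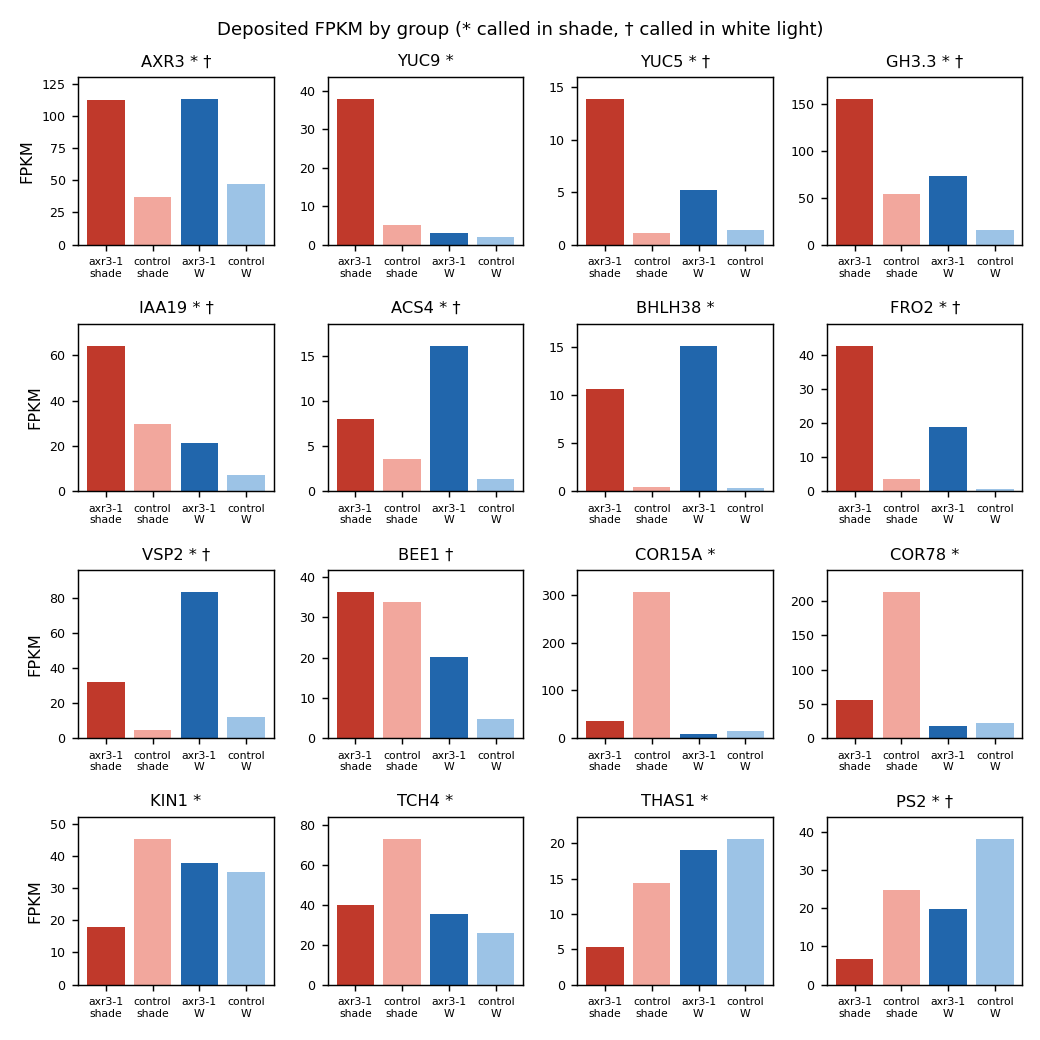
Bars give the deposited FPKM of 16 genes in axr3-1 and control seedlings in shade (left pair) and in W (right pair), with 1 pooled value and so no error bar per group. COR15A and COR78 are high in control seedlings in shade alone, YUC9 is high in axr3-1 seedlings in shade alone, and BHLH38 and FRO2 are high in axr3-1 seedlings in both lights.

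Of the other 17 genes 14 were called in W alone. BEE1, a bHLH factor of brassinosteroid response, had 36.2 FPKM in axr3-1 and 33.8 FPKM in control seedlings in shade, and 20.1 FPKM in axr3-1 and 4.65 FPKM in control seedlings in W, a difference between the lights of -2.01 ± 0.30 (adjusted p = 6.64e-09 from the authors' statistic). ACS4 had 16.2 FPKM in axr3-1 and 1.33 FPKM in control seedlings in W, so its log2 fold was smaller in shade by a difference of -2.42 ± 0.51 (adjusted p = 0.000565 from the authors' statistic). SEN1 (DIN1), a dark-inducible gene, had 1063 FPKM in axr3-1 and 711 FPKM in control seedlings in shade and 271 FPKM in axr3-1 and 34.2 FPKM in control seedlings in W (-2.41 ± 0.36). ESE3, ST2A and ADS1, an ethylene response factor, a hydroxyjasmonate sulfotransferase and a fatty acid desaturase-like gene, had differences of -2.22 ± 0.34, -1.96 ± 0.32 and -1.83 ± 0.33. ST2A had 194 FPKM in axr3-1 and 258 FPKM in control seedlings in shade, and 24.9 FPKM in axr3-1 and 8.47 FPKM in control seedlings in W, so its log2 folds had opposite signs in the lights, with no call in shade.

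Genes of methionine-derived glucosinolates made up 3 of the 6 whose log2 fold was higher in shade. CYP79F1, the first enzyme of their core route, had 6.68 FPKM in axr3-1 and 6.95 FPKM in control seedlings in shade, and 8.96 FPKM in axr3-1 and 56.6 FPKM in control seedlings in W, a difference of 2.60 ± 0.43. MAM1, which elongates methionine, had 42.0 FPKM in axr3-1 and 45.4 FPKM in control seedlings in shade and 29.9 FPKM in axr3-1 and 117 FPKM in control seedlings in W, and IPMI2, an isomerase of the same cycle, had 78.1 FPKM in axr3-1 and 78.1 FPKM in control seedlings in shade and 54.6 FPKM in axr3-1 and 170.4 FPKM in control seedlings in W. None of the 3 was called in shade, and all were called lower in W. MLP28, a protein of the major latex family, had 31.7 FPKM in axr3-1 and 73.1 FPKM in control seedlings in shade and 6.84 FPKM in axr3-1 and 228 FPKM in control seedlings in W, a difference of 3.85 ± 0.50.

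Whether a list as a whole differed between the lights was not tested. Of the 10 iron genes called in shade none passed the test of the difference between lights, and 6 iron genes were called in W, with a median of 0.79 in shade and 0.73 in W. FRO2 had 18.8 FPKM in axr3-1 and 0.530 FPKM in control seedlings in W, and its difference of -1.58 ± 0.56 was not past the threshold (adjusted p = 0.422 from the authors' statistic). The cold list had 1 call in W, COR15B, and a median of -0.17 there. CBF3, a regulator of cold genes, was called in shade alone, but its log2 folds were -1.54 in shade and -1.52 in W. For auxin response GH3.3 was called in both lights, with 73.1 FPKM in axr3-1 and 15.5 FPKM in control seedlings in W, and its difference was -0.72 ± 0.33 (adjusted p = 1 from the authors' statistic). TAA1, YUC2 and YUC5 were called higher in both lights too, and YUC5 had 5.24 FPKM in axr3-1 and 1.35 FPKM in control seedlings in W, a difference of 1.71 ± 0.56 (adjusted p = 0.239 from the authors' statistic).

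**Figure D4:**
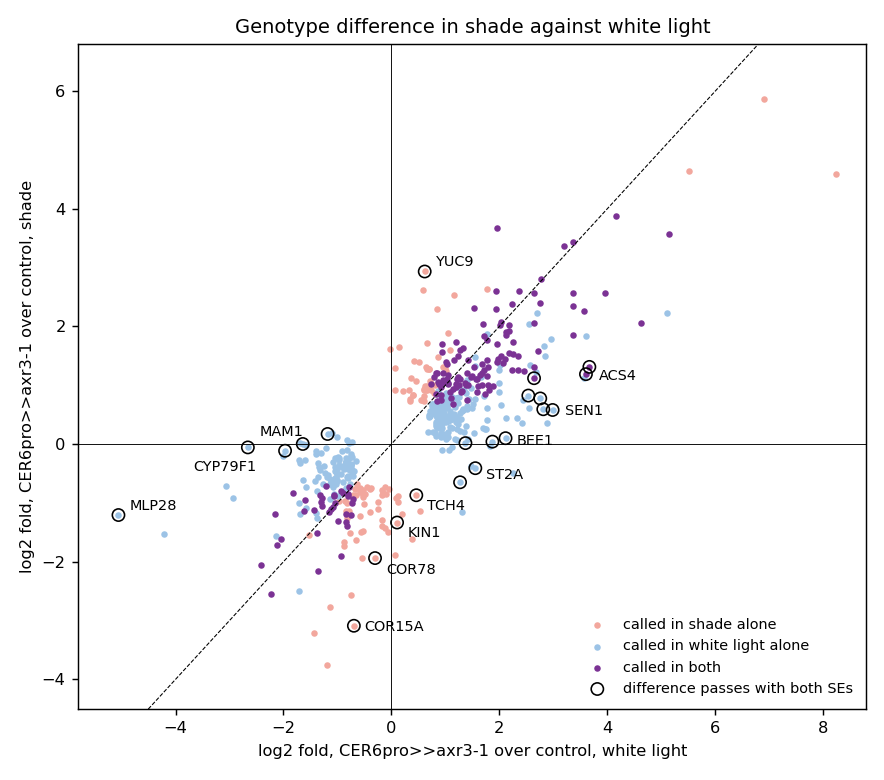
The log2 fold of axr3-1 over control seedlings in shade (vertical axis) is plotted against that in W (horizontal axis) for genes called in either light, with the line of equal folds dashed and circles on the 22 genes whose difference passed with both SEs. Points coloured for calls in both lights lie in the upper right and lower left, YUC9 lies far above the line, and COR15A, COR78, KIN1 and TCH4 lie below it.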

How the data were processed

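The Arabidopsis RNA was sequenced as single-end reads from stranded, polyadenylated libraries, per the labels' protocols. Per the submitters' processing notes, the tools were CASAVA 1.8.2, TopHat2 2.0.9, Bowtie2 2.1.0, Cufflinks and Cuffdiff on TAIR10; the sources used here do not give other settings. The deposited values, made by the authors, are 1 FPKM per group and gene, a test statistic (a score), and p-values with q-values, and 2 such tables were used. The q of a given p was the same in both tables for 7852 of 7856 shared p-values, so the adjustment ran over more than 1 table.

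From these the log2 fold of the group FPKM was computed with no pseudocount, axr3-1 over control, with the SE as the log2 fold over the deposited statistic, scaled by 0.564 in shade and 0.560 in W to the normal deviate of p (set on p between 0.001 and 0.5). The difference between lights was a two-sided z test with Benjamini-Hochberg adjustment over genes tested in both tables with an FPKM of at least 1 in any of the 4 groups. The code was first run on simulated normal folds with the recovered SEs. In these the statistic matches its p by design, so that run could not show the effect of a statistic that departs from its p. Depth per library is unknown, so no interval from counts could be given. Named genes were 12 chosen for auxin, shade and the transgene, up to 4 called members per list, the 12 largest rises and falls with a symbol, the 5 most abundant calls per direction, and the 10 of smallest p in the difference test, 77 in all. Any other gene with values was named after its values were seen. The members, the 36 lists and the comparisons were chosen with earlier results of these data known, and the gene families after the calls were seen. Of 832 symbols written, 34 found no gene in the table. A RefSeq locus tag was found for 32029 rows, and 19 called rows cover more than 1 gene. List symbols were matched to genes by RefSeq symbol, the authors' gene name, RefSeq synonym or by hand. Alternatives were other q and fold thresholds, an FPKM minimum, adjustment within this table, a pseudocount, centring, the SE from p, and leaving out shared loci. Python 3.11.15, NumPy 2.4.6, pandas 2.3.3, SciPy 1.17.1 and Matplotlib 3.10.9 were used.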

Additional observations from a re-analysis of the deposited data

Results flagged for a closer look

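A gene is given here because its log2 fold of axr3-1 over control seedlings differed between shade and W, by the two-sided z test on both folds with Benjamini-Hochberg adjustment. Values are the fold in shade minus the fold in W on the log2 scale. With both kinds of SE the difference passed at MLP28 (3.85), CYP79F1 (2.60), YUC9 (2.32), MAM1 (1.86), IPMI2 (1.64) and AT3G16530, a lectin-like gene (1.35). The differences below 0 that passed with both were ACS4 (-2.42), SEN1 (-2.41), COR15A (-2.39), AT5G50335 (-2.36), ESE3 (-2.22), BEE1 (-2.01), MBP1 (-1.98), ST2A (-1.96), AT1G52000 (-1.92), ADS1 (-1.83), AT1G19530 (-1.71), COR78 (-1.63), MAKR6 (-1.52), KIN1 (-1.44), AT5G62280 (-1.36) and TCH4 (-1.33). MAKR6, a membrane-associated kinase regulator, had 105 FPKM in axr3-1 and 48.4 FPKM in control seedlings in shade, and 89.5 FPKM in axr3-1 and 14.3 FPKM in control seedlings in W, so it was called higher in both lights.

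ACS5 (-2.57), GOLS3 (-1.83), YUC8 (-1.49), KIN2 (-0.92) and PRE6 (-0.79) passed with the SE from the statistic and missed the threshold with the SE from the authors' p, at adjusted p = 1, 0.0915, 0.0779, 0.458 and 0.142. YUC8 had 8.47 FPKM in axr3-1 and 2.52 FPKM in control seedlings in W, where it was called higher.

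The 10 genes of smallest p were loci of short non-coding RNA, merged transcripts and the plastid. Their differences were -4.64 at XLOC_016013, -2.88 at ATCG00620, -2.74 at XLOC_005971, -2.64 at AT3G24615, -2.53 at XLOC_031679, -1.005 at XLOC_018570, -0.81 at AT2G01021, 1.08 at XLOC_005912, 4.62 at XLOC_008021 and 5.50 at XLOC_027572. Each had an adjusted p of 1 with the SE from p, and none was called in either light by the authors' deposited table.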

How the results depend on the processing

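At q under 0.01 the authors' deposited table gave 157 genes (99 higher, 58 lower), 70 higher and 17 lower in both lights, and 12 list genes lower. With a 2-fold minimum 54 were lower, 14 of them in both lights, and 12 in lists. For the difference between lights, 22 genes passed with the SE from p and the same number with both SEs, and 74 without shared or unnamed loci; the last 2 settings were chosen after seeing the data. Adjusting within the shade table alone left 187 genes, 117 higher and 70 lower. A pseudocount cannot change the sign of a fold, and centring moved every fold by less than the smallest called one, so neither could change a count of calls by direction. Of the 77 named genes, 14 lost their call at q under 0.01 and 6 under adjustment within the table. What caused these shifts was not tested. No paired analysis was possible because each group has 1 pooled value, and leaving out a replicate was not run for the same reason. Genes of low FPKM rest on few reads, and the depth is unknown.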

Other observations

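Some enzyme families held several called genes in shade. These families were picked after the calls were seen, so their counts are a description. Starch breakdown genes were called lower in 4 of 14 cases, 12 of the 14 lay below 0 and the median log2 fold was -0.51. SEX1, the glucan water dikinase that opens the granule, had 40.8 FPKM in axr3-1 and 72.6 FPKM in control seedlings (-0.83 ± 0.24), PHS2, a cytosolic phosphorylase, had 29.2 FPKM in axr3-1 and 63.1 FPKM in control seedlings (-1.11 ± 0.23), and DPE1 had -0.68 ± 0.22. Genes of root triterpene synthesis were called lower in 3 of 6 tested cases, and the 3 are neighbours on chromosome 5. THAS1, the thalianol synthase, had 5.34 FPKM in axr3-1 and 14.4 FPKM in control seedlings (-1.43 ± 0.34). Its neighbours CYP708A2 and CYP705A5 had log2 folds of -1.49 ± 0.39 and -1.40 ± 0.27. In W the 3 lay at -0.11, -0.07 and -0.17, but none was among the 123 genes that passed the test of the difference between lights. GDSL esterases, many of them extracellular lipases of surface tissues, were called lower in 5 of 55 cases and higher in none, among them AT1G29660 at 34.4 FPKM in axr3-1 and 78.7 FPKM in control seedlings. The lipid transfer protein genes LTP2 and LTP6 were called lower at -0.73 ± 0.17 and -1.14 ± 0.27.

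Families with rises were the cysteine-rich receptor-like kinases, called higher in 4 of 23 cases with 18 above 0 and a median of 0.36, and the CYP71B cytochromes P450, called higher in 3 of 20. CRK11 had 14.3 FPKM in axr3-1 and 6.63 FPKM in control seedlings, and CYP71B3 had 10.98 FPKM in axr3-1 and 2.69 FPKM in control seedlings, with its neighbours CYP71B23 and CYP71B24 at 1.498 ± 0.20 and 1.85 ± 0.38. The XTH family was called higher in 4 of 27 and lower in 3. XTH31 had 44.2 FPKM in axr3-1 and 17.96 FPKM in control seedlings, and XTH7 137 FPKM in axr3-1 and 65.0 FPKM in control seedlings. The peptide genes RGF9 and RGF6 were called in opposite directions, at 2.30 ± 0.18 and -1.25 ± 0.20.

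Some called genes stood next to each other. Among 364 tested neighbours of called genes 36 were called (9.89%), against 1.25% of all tested genes. Of 231 called genes with a tested neighbour, 30 had a neighbour called in the same direction and 4 one called in the opposite direction, and 16 of the 18 neighbouring pairs went the same way. The pairs include BHLH38 and BHLH39, COR15A and COR15B, KIN1 and KIN2, VSP1 and VSP2, FLP1 and FLA5, and MAKR6 and ATIM. Several of these are pairs within the same gene family by name, and why neighbours were called together was not tested. The opposite pairs were AXR3 with IAA3, whose starts lie 8070 bases apart, and HAT2 (0.88) with AT5G47380 (-0.98). Called genes made up between 0.949% of tested genes on chromosome 3 and 1.65% on chromosome 5, and none of 41 tested plastid and 17 mitochondrial genes was called. AT1G27565 was called lower with a listed FPKM of 0 in axr3-1 and 2.90 in control seedlings, and an unnamed locus was called higher with 2.57 FPKM in axr3-1 and a listed 0 in control seedlings, so no fold is given for either.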
